A study of Mus musculus with 2 samples.

Results

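The genes described here are 10 genes of purinergic signalling, chosen by name from a total of 15623 genes listed in at least 1 of the expression tables. They are the ATP-gated channels P2rx4 and P2rx7, the nucleotide receptors P2ry2, P2ry6, P2ry12 and P2ry14, the adenosine receptors Adora2a and Adora2b, and the ectonucleotidases Entpd1 and Nt5e. All 10 were listed in the nontreated sample and 9 in the stimulated one. Peritoneal macrophages elicited with thioglycollate in wild type C57BL/6 mice were profiled by RNA sequencing. Cells drawn into the peritoneal cavity by 4% thioglycollate were collected 4 to 5 days later, left to adhere for 4 h, and starved in medium with 0.5% serum. The cells were then nontreated (NT) or stimulated with mouse IL-4 for 6 h, and each group held 1 library, so no difference given here has a replicate check. Selection by adherence does not purify a single cell type, and the labels do not say how many animals gave the cells of each library.

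Cells release ATP, UTP and UDP-sugars when they are stressed, damaged or activated, and surface receptors read these nucleotides as signals. P2X receptors are cation channels opened by ATP, and P2Y receptors couple to G proteins and recognise different nucleotides. Ectonucleotidases strip phosphates from extracellular ATP until adenosine is left, which acts on its own receptors, and in macrophages ATP sensing is known for inflammasome activation and adenosine for damping inflammatory cytokines.

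The NT library held 11035641 expected counts and the IL-4 library 11250099, where an expected count is the estimated number of reads assigned to a gene. The floor used here, at or under which a gene was given no ratio when both libraries lay there, was 3 counts, which corresponded to 0.272 CPM (counts scaled to a fixed library total) in the NT library and to 0.267 CPM in the IL-4 library. All 8 genes of the M2 list (genes known to be induced by IL-4) were higher in the IL-4 library, with log2 ratios from 0.86 to 7.95. Arg1 went from 30 to 7711 expected counts and Mrc1 from 679 to 6962. The 8 macrophage markers were all listed, 1 was called higher (Csf1r, 6236 counts in NT and 11896 in IL-4, log2 ratio 0.90) and 1 lower (Cd14, 1219 and 591 counts, log2 ratio -1.07). Most of the signal came from Lyz2 and Cd68, and the summed FPKM of the list (fragments scaled for transcript length and library total) was 14906 in NT and 14769 in IL-4. The labels also give bone marrow as the tissue, but name the cells peritoneal macrophages. Of 40 markers of B cells, T cells, NK cells, mast cells, neutrophils, eosinophils, platelets and mesothelial cells or fibroblasts, 27 were listed. Of these, 0 were called higher and 2 were called lower (Siglecf and Msln), beside 4.07% and 6.28% of all genes tested. The summed FPKM of these lists in NT and IL-4 was 6.52 and 5.77 for B cells, 1.66 and 1.14 for T cells, 0.21 and 0 for NK cells, 4.75 and 3.63 for mast cells, 8.76 and 5.15 for neutrophils, 1.89 and 1.06 for eosinophils, 0.13 and 0.08 for platelets, and 34.2 and 29.1 for mesothelial cells and fibroblasts. Whether such cells contribute to the member levels was not tested, and in bulk RNA fewer cells of a type and less RNA per cell cannot be told apart.

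Among the 10 genes, P2ry6 and P2ry14, receptors for UDP and UDP-glucose, were higher in the IL-4 library, by 1.85-fold and 1.79-fold. The ATP channels P2rx4 and P2rx7 were 1.23-fold higher in IL-4, which is under the size required for a call, and Entpd1 lay at 1.04-fold. No member was called lower. Calls needed a log2 ratio (IL-4 over NT) of 0.75 or more in size, together with an unadjusted p no higher than 0.05 and a Benjamini-Hochberg (BH) value no higher than 0.5, from an exact conditional binomial test of the reads of each gene over all 15593 genes tested. Under this rule 2 of the 10 members were called higher, beside 4.07% of all genes tested. The share of all genes called lower was 6.28%, beside 0 of the 10 members, and at an unadjusted p of at most 0.05 only P2ry2 lay lower. The test compares the 2 libraries and not the conditions, and every interval given is a 95% interval that covers counting error only.

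Across the 9 members with more than 3 counts in 1 of the libraries, 7 ratios lay above 0 and 2 below, and the median log2 ratio was 0.30. Over the 13395 genes of the series above that floor, 6206 ratios lay above 0 and 7189 below, with a median of -0.03. The summed FPKM of the 10 genes was 308.2 in NT and 388.5 in IL-4, and most of it came from P2rx4.

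**Figure D1:**
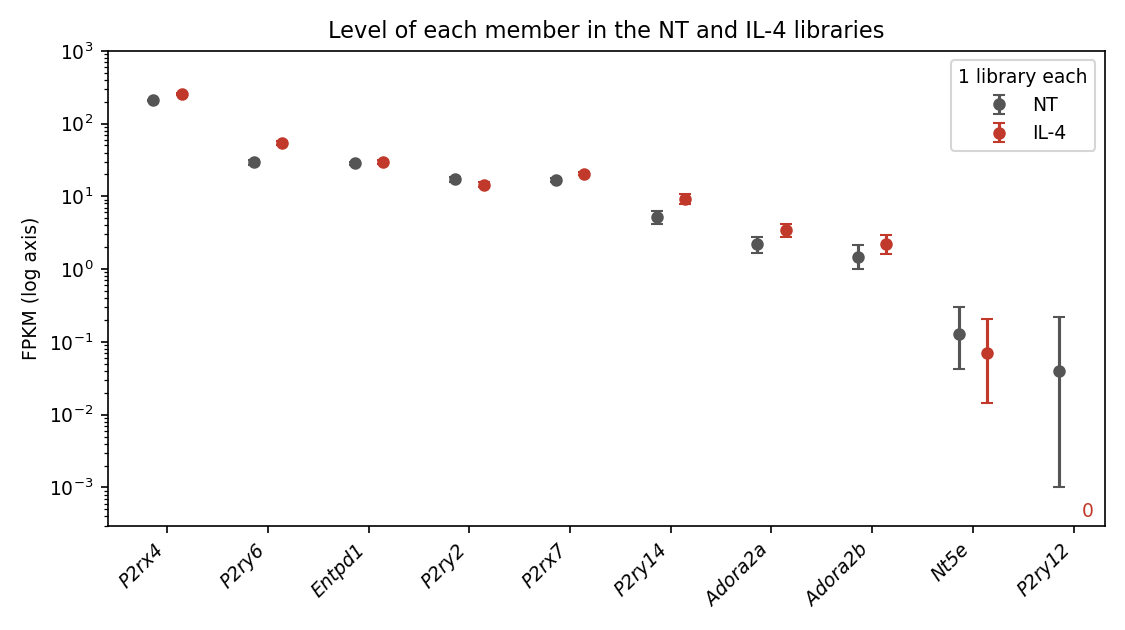
Level of each of the 10 genes in FPKM on a log axis in the NT and the IL-4 library, with vertical lines for the exact 95% counting interval of 1 library each. P2rx4 sits far above the others at 208 and 255 FPKM, while Nt5e and P2ry12 lie at or near 0, with P2ry12 not listed in the IL-4 library.

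The levels of the members spanned more than 3 orders of magnitude per transcript length. In the NT library P2rx4 was followed by P2ry6 and Entpd1, whose intervals overlapped, then by P2ry2 and P2rx7, whose intervals also overlapped, and by P2ry14. Adora2a and Adora2b came next with overlapping intervals, and Nt5e and P2ry12 were lowest, again with overlapping intervals. In the IL-4 library P2ry6 stood apart above Entpd1, and P2rx7 lay above P2ry2, each without overlap of the intervals, whereas Adora2a and Adora2b still overlapped. The FPKM of P2rx4 was higher than that of 97.9% of the genes tested in NT and 98.2% in IL-4. That of Adora2b was higher than that of 36.1% and 41.4% of the genes.

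P2rx4 encodes the ATP-gated channel P2X4, which in macrophages is held largely in lysosomes, and it lies on chromosome 5 from 122707518 to 122729739 (build GRCm38). Its level was 207.6 FPKM (6215 expected counts) in NT and 254.8 FPKM (7778) in IL-4. The log2 ratio was 0.30 (interval 0.25 to 0.34). The difference was thus larger than counting error alone gives but below the ratio of a call. P2rx4 was also the most abundant P2 receptor, with 72.0% of the summed FPKM of the 16 P2 receptor genes looked up in NT and 69.1% in IL-4. Of the 31-base stretches in its annotated transcripts, 4.50% also occurred in transcripts of other genes, the highest share among the members, and its expected counts were not whole numbers, so some of its reads may have been divided among genes.

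P2rx7 encodes P2X7, the low-affinity ATP channel known for potassium efflux and activation of the NLRP3 inflammasome. It lies next to P2rx4 on chromosome 5, from 122643927 to 122692336 on the same strand, with 16111 bases between the GENCODE models of the genes, whose ends differ slightly from the RefSeq coordinates printed here. Its level was 16.9 FPKM (868 counts) in NT and 20.6 FPKM (1086) in IL-4, with a log2 ratio of 0.30 (interval 0.17 to 0.43). The intervals of the neighbours overlapped, and P2rx4 exceeded P2rx7 by 12.3 times in NT and 12.4 times in IL-4 in FPKM. Across genes of these libraries the ratio fell with transcript length (Spearman rank correlation -0.45). The trend was 0.05 at the length of P2rx4 and -0.15 at that of P2rx7. With it subtracted, the ratio was 0.25 (interval 0.20 to 0.30) for P2rx4 and 0.45 (interval 0.32 to 0.58) for P2rx7. These intervals did not overlap, but the trend was taken as exact, so its error is not included and the separation comes from this shift.

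The promoters of these neighbours are shown because the genes are adjacent and had unequal levels. Each line gives the 250 bases before the start of a RefSeq transcript on build GRCm38.p6, 5′ to 3′ on the strand of the gene, with CpG dinucleotides in capitals.
P2rx4 (chr5:122707294-122707543, plus strand): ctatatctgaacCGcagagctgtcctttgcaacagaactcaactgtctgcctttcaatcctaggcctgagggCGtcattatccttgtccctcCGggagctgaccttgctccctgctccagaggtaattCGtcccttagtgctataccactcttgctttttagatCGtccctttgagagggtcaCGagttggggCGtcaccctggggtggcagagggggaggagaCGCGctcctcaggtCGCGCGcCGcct
P2rx7 (chr5:122643677-122643926, plus strand): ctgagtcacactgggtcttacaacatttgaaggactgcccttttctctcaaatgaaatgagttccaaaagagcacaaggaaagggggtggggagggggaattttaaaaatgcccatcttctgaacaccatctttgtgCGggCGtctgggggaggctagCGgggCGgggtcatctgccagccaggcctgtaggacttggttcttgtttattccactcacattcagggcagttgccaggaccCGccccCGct
The P2rx4 transcript used starts inside the gene interval given above, so the end of its window overlaps that interval. The window of P2rx4 held 13 CpG and that of P2rx7 held 6, where the median of all promoters in the table was 6. A further RefSeq start of P2rx7 had 4 CpG in its window. Whether CpG content relates to level was not tested.

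Of the P2Y receptors, P2ry6 showed the largest ratio among the members. P2Y6 is activated mainly by UDP, couples to Gq, and is known for phagocytosis by microglia and chemokine release by monocytes. The gene, at 100937630 to 100975498 on chromosome 7, had 29.2 FPKM (618 counts) in NT and 54.1 FPKM (1167) in IL-4. The log2 ratio was 0.89 (interval 0.75 to 1.03), so the IL-4 library was the higher by more than counting error, and 90.3% of the genes tested had a lower ratio. The lower end of the interval lay at the ratio threshold.

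P2ry2 encodes P2Y2, a Gq-coupled receptor for ATP and UTP that mediates chemotaxis towards nucleotides. It lies on the same strand of chromosome 7 as P2ry6, at 100996568 to 101012053, with 21918 bases between their GENCODE models. Its level was 17.1 FPKM (563 counts) in NT and 14.5 FPKM (491) in IL-4, with a log2 ratio of -0.22 (interval -0.40 to -0.05). This gene was not called, and its interval does not overlap that of its neighbour P2ry6. The FPKM ratio of P2ry6 over P2ry2 was 1.71 in NT and 3.74 in IL-4.

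P2ry14 encodes P2Y14, a Gi-coupled receptor for UDP-glucose and related UDP-sugars. On chromosome 3 at 59114623 to 59153492, it had 5.12 FPKM (95.7 counts) in NT and 9.16 FPKM (175 counts) in IL-4. The log2 ratio was 0.84 (interval 0.47 to 1.21), a call that rests on fewer reads than that of P2ry6. The ratio was 0.73 when computed on FPKM with 1 added and 0.72 after the length trend was subtracted, both below the threshold. P2ry6 exceeded P2ry14 by 5.71 times in NT and 5.91 times in IL-4. The expected counts of P2ry14 were not whole numbers, as for P2rx4, so some of its reads may have been divided among genes. Of its 31-base stretches, 0.18% also occurred in transcripts of other genes.

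P2ry12 encodes P2Y12, the Gi-coupled ADP receptor of platelets and a marker of resting microglia. It had 1 expected count (0.04 FPKM) in NT and was not listed in IL-4, so both libraries were at or under the floor and no ratio is given. Neither library therefore held P2ry12 above the smallest level shown. Genes around it on chromosome 3 (59216271 to 59262985 for P2ry12) were also low. P2ry13, another Gi-coupled ADP receptor 5389 bases away in GENCODE, had 3 counts in NT and 2 in IL-4, and Gpr171 likewise 3 and 2. Med12l had 7 and 12 counts without a call. P2ry14 lies 54273 bases from P2ry13 in GENCODE, and was thus the member of this receptor cluster with a level well above the floor. P2ry12 and P2ry14 lie inside Med12l, which runs on the opposite strand, and since strand-specific counting was not stated, reads of overlapping genes cannot be assigned by strand. The longest stretch of exon shared with Med12l was 9 bases for P2ry12 and 0 for P2ry14.

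The promoters of P2ry2 and P2ry14 are shown as the member windows of contrasting CpG content among the P2Y receptors, on the same build and with CpG in capitals.
P2ry2 (chr7:101011999-101012248, minus strand): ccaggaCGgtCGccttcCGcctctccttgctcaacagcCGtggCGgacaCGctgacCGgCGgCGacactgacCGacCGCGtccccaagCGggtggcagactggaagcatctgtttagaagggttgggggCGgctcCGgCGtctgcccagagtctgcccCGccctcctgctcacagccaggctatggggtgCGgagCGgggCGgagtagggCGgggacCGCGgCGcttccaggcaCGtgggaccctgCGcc
P2ry14 (chr3:59153493-59153742, minus strand): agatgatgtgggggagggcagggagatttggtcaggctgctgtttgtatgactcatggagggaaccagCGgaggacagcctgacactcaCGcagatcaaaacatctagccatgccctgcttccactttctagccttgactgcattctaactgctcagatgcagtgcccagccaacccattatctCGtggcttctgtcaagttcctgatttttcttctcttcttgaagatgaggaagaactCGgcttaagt
The P2ry2 window held 26 CpG and the P2ry14 window 4. Another window of P2ry2, from a start farther upstream that places the window shown partly inside the gene, held 21. The 3 further windows of P2ry14 held 1 to 4 CpG, and that of P2ry12 held 3. The window of Adora2b held 22 CpG and that of Nt5e 21, and these genes had 1.48 and 0.13 FPKM in NT. As above, a relation of CpG content to level was not tested. The 2 windows of Entpd1, at 28.4 FPKM in NT, held 18 and 8. RefSeq promoter entries were available here for 8 of the 10 members, and none was found for P2ry6 or Adora2a.

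Composition of the P2Y receptors differed between the libraries. Over the 9 P2Y genes listed, summed FPKM was 63.2 in NT and 92.4 in IL-4. The 9 include P2ry10, which encodes a lysophosphatidylserine receptor, and its relative P2ry10b. P2ry10b made up 12.7% of the sum in NT and 5.81% in IL-4, so the shares of the other genes depend partly on it. P2ry6 made up 46.3% of the sum in NT and 58.6% in IL-4, P2ry2 27.1% and 15.7%, and P2ry14 8.10% and 9.91%. With 1 library per group these shares are values of the libraries and have no test.

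The adenosine receptors Adora2a and Adora2b couple to Gs and raise cyclic AMP, the former with high and the latter with low affinity for adenosine. Adora2a, at 75316877 to 75334792 on chromosome 10, had 2.18 FPKM (63 counts) in NT and 3.40 FPKM (100) in IL-4. Its log2 ratio was 0.63 (interval 0.17 to 1.12). It was not called, although a rule of at least 1.5-fold with a BH value of at most 0.05 would call it, together with P2ry6 and P2ry14, beside 4.84% of all genes called higher by that rule. Adora2b, at 62248984 to 62266452 on chromosome 11, had 1.48 FPKM (30 counts) in NT and 2.22 FPKM (46) in IL-4. Its log2 ratio of 0.58 had an interval that includes 0, running from -0.11 to 1.30, and a difference was not detectable at this depth. Adora2a exceeded Adora2b by 1.47 times in NT and 1.53 times in IL-4, and in both libraries the intervals of their levels overlapped.

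Entpd1 encodes CD39, which converts extracellular ATP and ADP to AMP, and Nt5e encodes CD73, which converts AMP to adenosine. Entpd1, at 40612366 to 40741602 on chromosome 19, had 28.4 FPKM (1333 counts) in NT and 29.6 FPKM (1420) in IL-4. Its log2 ratio was 0.06 (interval -0.05 to 0.17), so at this depth the libraries did not differ by more than counting error. A fold above 1.13 or below 0.97 lies outside that interval. Both statements hold only before the length trend was subtracted. After it the ratio was 0.16 (interval 0.05 to 0.27), a difference larger than counting error alone, although that interval includes no error of the trend. Nt5e, at 88327609 to 88372089 on chromosome 9, had 5 counts (0.13 FPKM) in NT and 3 counts (0.07 FPKM) in IL-4. With so few reads its log2 ratio of -0.68 had an interval from -3.45 to 1.60. The RNA levels of Entpd1 and Nt5e were thus very unequal, with Entpd1 exceeding Nt5e by 218 times in NT and 423 times in IL-4. These ratios rest on the 5 and 3 reads of Nt5e, and they are not ratios of the whole pathway from ATP to adenosine. Acpp, from the list of other ectonucleotidases, had 1.3 FPKM (64 counts) in NT and 1.1 FPKM (56) in IL-4. Enzyme protein was not measured here.

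**Figure D2:**
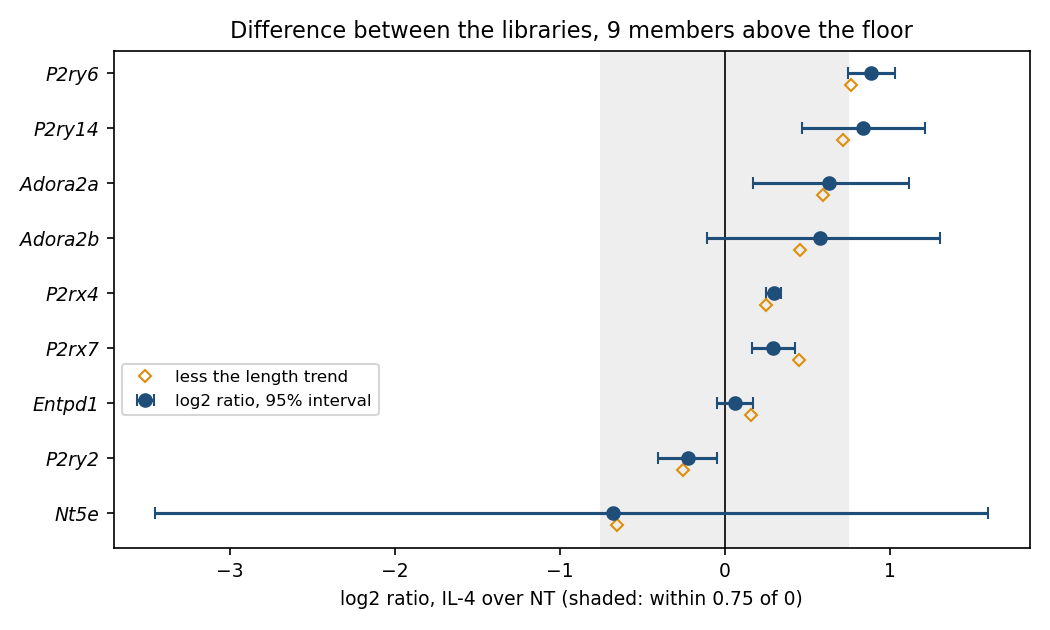
Log2 ratio of IL-4 over NT for the 9 members above the floor of 3 counts, with the 95% counting interval from the reads of 1 library per group. P2ry6 and P2ry14 lie beyond the threshold of 0.75, and P2rx4 and P2rx7 lie within it with narrow intervals above 0. Entpd1 lies close to 0 with a narrow interval, and the interval of Nt5e spans both sides widely.

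**Figure D3:**
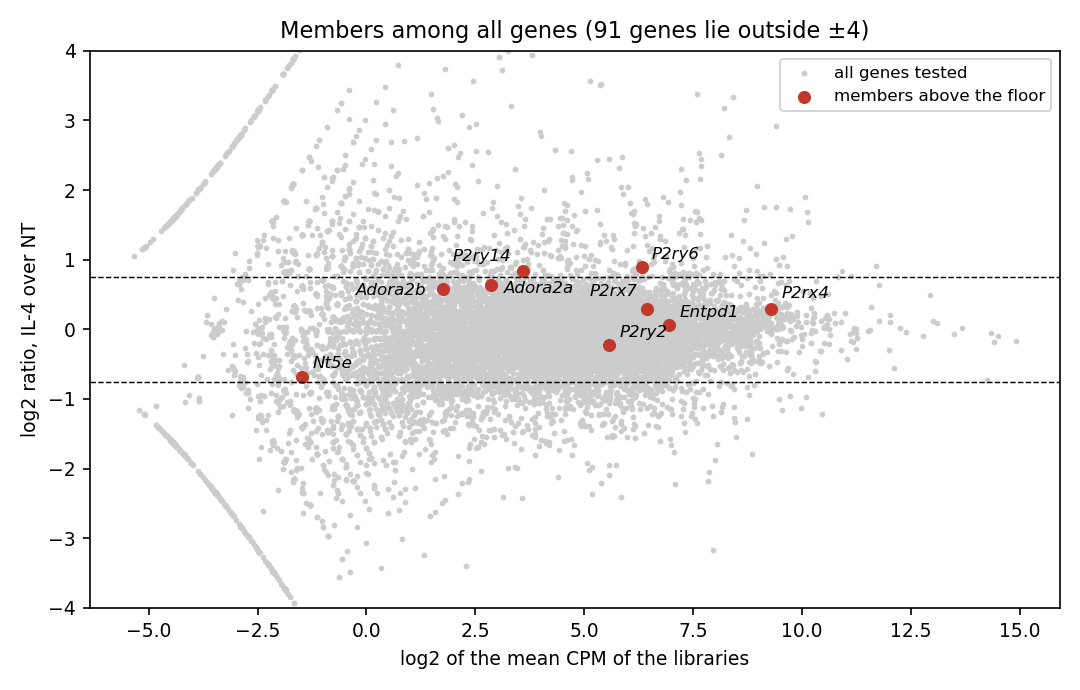
Log2 ratio of IL-4 over NT against the log2 of the mean CPM for all genes tested, with the 9 members above the floor of 3 counts in colour and dashed lines at 0.75 in size. The 2 called members lie just beyond the upper line, and 91 genes of the series lie outside the plotted range of 4 in size.

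The call of P2ry6 and P2ry14 depended on the rule. With the length trend subtracted 4.00% of all genes were called higher and of the members P2ry6 alone, at 0.76. With 1 added to FPKM, 2.51% were called and again P2ry6 alone. At a log2 ratio of at least 1 with a BH value of at most 0.05, 2.62% of genes and 0 members were called. When a biological coefficient of variation of 0.2 was assumed, the exact test of edgeR called 2.50% of genes and 0 members, and with 0.4 it called 0.417% of genes and 0 members.

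To set the members within the pathway, 72 further genes of nucleotide signalling were listed: other P2X, P2Y and adenosine receptors, other ectonucleotidases, nucleoside transporters and enzymes, release channels, and G proteins with the cyclic AMP machinery. Of these, 63 were listed and 53 were above the floor, and the median log2 ratio was 0.00 over the 53. Of the 63, 3 were called higher and 4 lower, counts close to the 4.07% and 6.28% of all genes tested. The same shares stand beside the counts of each list below. The genes called higher were P2ry1, Gja1 and Pde4d, and those called lower were Slc28a2, Slc28a3, Adcy7 and Rapgef3.

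P2ry1, the Gq-coupled ADP receptor, had 3.33 FPKM (140 counts) in NT and 8.78 FPKM (372) in IL-4, with a log2 ratio of 1.38 (interval 1.10 to 1.67). It was the only 1 of the 5 other P2Y genes that was called. P2ry10b, of the 5 the highest in mean FPKM over the libraries but below P2ry1 in IL-4, and a relative of the lysophosphatidylserine receptor P2Y10, had 8.03 FPKM in NT and 5.37 FPKM in IL-4, and was not called. Of the 5 other P2X genes P2rx1 was the most abundant, with 13 counts in NT and 16 in IL-4, so P2rx4 and P2rx7 held nearly all of the P2X signal. Of the other adenosine receptors, the Gi-coupled Adora3 had 18.9 counts in NT and 12.02 in IL-4 and was not called.

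Of 13 genes of nucleoside uptake and metabolism, 11 were listed, 0 were called higher and 2 lower. Slc28a2, a sodium-coupled transporter that takes up purine nucleosides, had 11.2 FPKM (485 counts) in NT and 4.53 FPKM (201 counts) in IL-4, with a log2 ratio of -1.30 (interval -1.54 to -1.06). Slc28a3, a related transporter, was also called lower but had 6.54 counts in NT and 0 in IL-4. The most abundant gene of this list was Slc29a3, a lysosomal nucleoside transporter, with 75.6 FPKM in NT and 62.6 FPKM in IL-4 and no call.

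Among the 12 other ectonucleotidases, 11 were listed and 0 were called. The most abundant was Entpd4, an intracellular relative of Entpd1, with 12.2 FPKM in NT and 11.7 FPKM in IL-4. Lrrc8a, a volume-regulated anion channel subunit and the most abundant release gene, had 6.88 FPKM in NT and 6.45 FPKM in IL-4. Gja1, the connexin hemichannel gene, was called higher from 19 counts in NT and 43 in IL-4.

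Of the 29 G protein and cyclic AMP genes, 26 were listed, 1 was called higher and 2 lower. Gnas, the Gs alpha subunit used by these adenosine receptors, was the most abundant at 518.5 FPKM in NT and 468.7 FPKM in IL-4. Adcy7, an adenylyl cyclase, had 37.8 FPKM (2526 counts) in NT and 22.1 FPKM (1509) in IL-4, with a log2 ratio of -0.77 (interval -0.86 to -0.68). That ratio lay just past the threshold, and the call was lost with TMM or median-of-ratios scaling, with the length trend subtracted, with 1 added to FPKM, when a log2 ratio of 1 was required, and in the edgeR test with a coefficient of variation of 0.2 or 0.4. Pde4d, a cyclic AMP phosphodiesterase, was called higher from 21 and 43 counts, and Rapgef3, a cyclic AMP sensor, lower from 12 and 3.

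**Figure D4:**
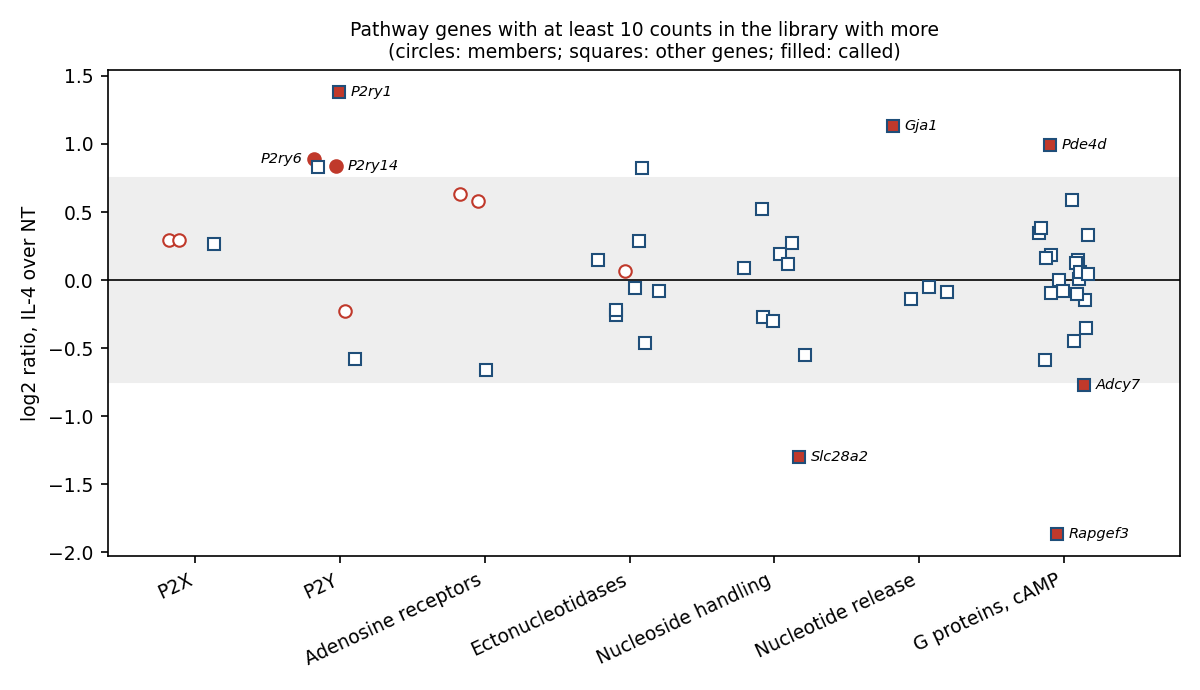
Log2 ratio of IL-4 over NT for the members (circles) and the other pathway genes (squares) with at least 10 counts in the library with more, by role, with called genes filled and the band of ratios under 0.75 in size shaded. Most pathway genes lie within the band, P2ry1 reaches 1.38, Slc28a2 lies at -1.30 and Rapgef3, with 12 and 3 counts, is lowest at -1.86. Slc28a3 had too few counts to be drawn.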

How the data were processed

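The sample labels and study methods state that column-purified total RNA was sequenced on a HiSeq (Illumina). Per the submitters' processing notes, Bowtie and RSEM were used with GRCm38/mm10. Versions and strand-specific counting were not given in the sources used here. The deposited tables give an expected count per gene, which the authors did not scale for depth. The deposited FPKM values were scaled by the authors for transcript length and assigned fragments. The deposited length is a transcript-weighted number of bases. Genes not listed in a table were set to 0.

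Counts were scaled to library totals (CPM), and log2 ratios had 0.5 count added in each library. Counts were then rounded, and 15593 genes were tested, leaving out 30 that rounded to 0 in both. The exact conditional binomial test was two-sided, with the smaller tail doubled, and BH adjustment ran over all genes. Intervals of ratios are exact Clopper-Pearson 95% intervals, and those of levels are exact Poisson 95% intervals. Both cover counting error only, because each group held 1 library. They may be too narrow even for that error, since amplified reads carrying no molecular identifiers may repeat a molecule. The procedure was tested on simulated counts with counting error only and with changes larger than those of the called members. That test therefore does not cover spread between animals or the recovery of changes as small as theirs. With 1 library per group, edgeR's quasi-likelihood test could not be fitted. Symbols were found for 15587 of 15623 identifiers in a RefSeq gene table. For the length trend, the 501 genes of closest length were taken from 8461 with at least 200 counts, and their median ratio was used. Promoters came from RefSeq and gene overlaps from GENCODE release M21.

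All members are named. Of the other pathway genes, those called with at least 50 counts in the library with more, the most abundant of each list, and genes around P2ry12 are named with values, and Gja1, Pde4d, Slc28a3 and Rapgef3 were added after their values were seen. Siglecf, Msln, Csf1r, Cd14, Lyz2, Cd68, Gnai1, Gnai2, Gnai3, Slc29a1, Enpp1, Acpp and P2ry10 were likewise named after their values were seen. The members and lists were chosen with earlier results of these data known. Alternatives were TMM (edgeR 4.0.16) and median-of-ratios scaling (DESeq2 1.42.0), totals that left out the 100 top genes by abundance, FPKM with 0.1 or 1 added, the edgeR exact test with assumed coefficients of variation of 0.1, 0.2 and 0.4, other thresholds, a filter at 10 counts, and the length trend. The software was R 4.3.3 and Python 3.11.15 with scipy 1.17.1, numpy 2.4.6, matplotlib 3.10.9 and pandas 2.3.3.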

Additional observations from a re-analysis of the deposited data

How the results depend on the processing

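No paired analysis was possible because NT and IL-4 have 1 library each, and no library could be left out for the same reason. With 9 members above the floor and 12 alternatives, 99 results were scored as keeping their direction and their side of the threshold. Of the rest, 8 lost a call, 1 gained one (Adora2a, at 1.5-fold with a BH value of at most 0.05) and 0 reversed. All of the lost calls were those of P2ry6 or P2ry14. Members without a call were scored as kept when they stayed uncalled, so the 99 do not measure how firm the calls are. The edgeR tests, the other thresholds and the count filter reused the main ratio, so a reversal was not possible under them and only a call could change. Nt5e had fewer reads than the count filter requires but was still scored as kept under it. The ratio of P2ry6 ranged from 0.76 to 0.93 and that of P2ry14 from 0.72 to 0.88. The count of members called higher, 2, became 1 with 1 added to FPKM and 1 with the length trend subtracted. It became 0 when a log2 ratio of 1 was required, and 0 in the edgeR test for either 0.2 or 0.4 as coefficient of variation. Of the other pathway genes, the 3 called higher became 1 with 1 added to FPKM, 1 with a coefficient of variation of 0.2 and 0 with 0.4, and the 4 called lower became 1, 2 and 0 under the same settings and 2 when a log2 ratio of 1 was required. Under the remaining settings 2 to 4 of them were called higher and 3 or 4 lower. The causes were not tested, but a larger assumed spread widens the error by construction. Depth limits what can be said of P2ry12 and Nt5e.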

Other observations

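Gnai2 and Gnai3, inhibitory G protein subunits, which serve P2Y12, P2Y13 and P2Y14, had opposite ratios within the thresholds, and were picked after their values were seen. Gnai1, also inhibitory, had 6 counts in NT and 5 in IL-4, with a log2 ratio of -0.27 (interval -2.34 to 1.68). Gnai2 had 444.4 FPKM (10690 counts) in NT and 296.0 FPKM (7261) in IL-4, with a log2 ratio of -0.59 (interval -0.63 to -0.54). Gnai3 had 40.7 FPKM (1490 counts) in NT and 61.1 FPKM (2281) in IL-4, with a log2 ratio of 0.59 (interval 0.49 to 0.68). Neither was called at a log2 ratio of 0.75 in size, but at 1.5-fold with a BH value of at most 0.05 Gnai3 was called higher and Gnai2 lower, and Gnai2 remained the more abundant in both libraries. Slc29a1 and Enpp1 were also picked after their values were seen. Slc29a1, which encodes the equilibrative nucleoside transporter ENT1, had 36.3 FPKM in NT and 24.8 FPKM in IL-4 (log2 ratio -0.55) and was not called. Enpp1, an ectoenzyme that cleaves ATP to AMP and pyrophosphate, had 470 counts in NT and 586 in IL-4 (log2 ratio 0.29) and was not called.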
